A study of Mus musculus with 14 samples.

Results

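Rpl6, Rpl27 and Rpl30 encode proteins of the large subunit of the cytosolic ribosome. They were followed here in brain and thymus of mice without the microRNA miR-34a, each against a pool of control RNA. The rule that picks the spots goes by name: a spot was a member when its accession belonged to 1 of the 3 genes. Each had 1 spot, so they made up 3 of the 20205 spots and 3 of the 1380 genes that could be named. Rpl6 (probe MG-15-189p2) lies on chromosome 5, Rpl27 (probe MG-3-22n13) on chromosome 11 and Rpl30 (probe MG-3-88c2) on chromosome 15. The spots of Rpl27 and Rpl30 were printed in block 17 of the array and the spot of Rpl6 in block 23.

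A ribosome is built from ribosomal RNA and a set of ribosomal proteins, and cells make these proteins in matched amounts. Their messenger RNAs are among the most abundant in growing cells, and many of them begin with a cytosine followed by a run of pyrimidines, the terminal oligopyrimidine tract through which nutrient and growth signals set their translation. miR-34a is a microRNA induced by the tumour suppressor p53, and it lowers mRNAs that pair with its seed. Ribosomal protein genes have many processed pseudogene copies in mouse, so a cDNA spot may also bind transcripts of near-identical copies, and values of all 3 spots are uncertain in that respect.

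The mutant animals were male C57BL/6 mice of 17 weeks with the genotype mir-34a minus. Brains came from 3 of them (mice 1 to 3) and thymuses from 4 (mice 1 to 4), so mice 1 to 3 gave both organs. The control RNA was a pool for each organ from male C57BL/6 controls of 17 weeks, and the labels name 4 of them where the labelling protocol mentions 6. For each mutant organ, 20 µg of total RNA was labelled and hybridised on 2 spotted cDNA arrays, with Cy3 and Cy5 exchanged between them, which gave 6 brain arrays and 8 thymus arrays. The pool is a mixed control sample, so the spread among control animals is not in any value below. The labels say neither how miR-34a was removed nor from which cells, and no probe was named Mir34a.

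The microRNA that the mutants lack and the starts of the ribosomal protein genes are shown first. The mature sequence is given to identify the missing molecule, with its seed, bases 2 to 8, in capitals. The genomic windows, 15 bases on each side of the annotated start of transcription, are given because an oligopyrimidine start is a feature known from this gene class, with the unbroken run of C and T over the start in capitals. All are from RefSeq on the mouse build GRCm38.p6 and on the plus strand, and 4 of the 6 ribosomal protein genes on the array had an entry.
miR-34a-5p, chr4:150068473-150068494: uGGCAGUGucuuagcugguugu
Rpl6, chr5:121204486-121204515: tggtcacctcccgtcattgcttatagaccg
Rpl27, chr11:101442230-101442259: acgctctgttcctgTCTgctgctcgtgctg
Rpl14, chr9:120571502-120571531: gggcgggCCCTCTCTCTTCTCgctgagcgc
Rplp2, chr7:141447636-141447665: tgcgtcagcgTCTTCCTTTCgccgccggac
Rpl6 has an A at its annotated start and no such run, and Rpl27 has a C in a run of 3 bases. Rpl14 and Rplp2, which were also on the array, have runs of 14 and 10 bases. A run of at least 5 bases of C or T over the start was found in 21 of 77 promoters of ribosomal protein genes (27.27%) and in 3330 of all 32851 promoters (10.14%). A C followed by at least 4 pyrimidines was found in 18.18% and 2.51% of them. Promoters of the same gene share sequence, and annotated starts can differ from the ones used in these organs.

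Signal set the limits for all arrays. Flags in the scanner files covered 0.812% to 10.7% of a brain array, against 9.32% to 72.4% of a thymus array, and flagged spots were left out. Between 56.3% and 94.4% of probes were detected on brain arrays and between 7.96% and 85.4% on thymus arrays, detection meaning a foreground at least 2 background SDs above the background in at least 1 channel. None of the 3 spots was flagged or saturated on any array. Rpl6 and Rpl27 were detected on all 14 arrays, while Rpl30 missed detection on brain replicate 1 and thymus replicate 7, whose values were kept. Thymus replicate 1 carries brain in 1 of its labels, and thymus replicate 6 had far fewer flagged spots than the other thymus arrays. As a check of the tissues, the log2 spot intensity of the neuronal gene Stmn2 in brain minus that in thymus was 2.08 (limma adjusted p = 0.00102), and for the thymocyte gene Satb1 it was -1.40 (limma adjusted p = 0.0176). These were the markers that passed, out of 5 tested of the 10 brain markers and 3 tested of the 3 thymocyte markers on the array. The other tested brain markers stood at 0.28 (Olig2), -0.0016 (Olig1), -0.06 (Slc17a7) and -0.49 (Syn1), so 3 of the 5 were below 0, and the other thymocyte markers at -0.71 (Cd8a) and 0.05 (Cd4).

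Before normalisation the signal above background of the 3 spots was modest. Each range of a channel below covers both dyes, since Cy3 and Cy5 were exchanged between the arrays of a mouse. For Rpl6 the mutant channel ran from 128 to 193 scanner units in brain, with a median of 145.5, against 94 to 220 in the pool channel, with a median of 123. In thymus the Rpl6 mutant channel ran from 117 to 419 units, with a median of 161.5, against 70 to 384 in the pool channel, with a median of 170. The ranges of the channels overlapped in both organs.

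For Rpl27 the mutant channel ran from 85 to 187 units in brain, with a median of 132.5, against 78 to 166 in the pool channel, with a median of 114. In thymus it ran from 93 to 281 units, with a median of 187.5, against 69 to 624 in the pool channel, with a median of 121.5. The pool channel of thymus replicate 7 was the brightest Rpl27 reading.

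For Rpl30 the mutant channel ran from 44 to 248 units in brain, with a median of 123.5, against 70 to 274 in the pool channel, with a median of 95.5. In thymus it ran from 98 to 288 units, with a median of 145, against 74 to 526 in the pool channel, with a median of 138.5. Per the labels the pool RNA was the same on every array of an organ, so the pool channel shows how far a reading moved between arrays and dyes together. The pool channel varied 2.34-fold for Rpl6, 2.13-fold for Rpl27 and 3.91-fold for Rpl30 among brain arrays. Among thymus arrays it varied 5.49-fold, 9.04-fold and 7.11-fold for the same genes. In thymus the Rpl27 pool ran from 83 to 142 units in Cy3 and from 69 to 624 units in Cy5. The ratio within an array was therefore the basis of the comparison of genotypes.

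**Figure D1:**
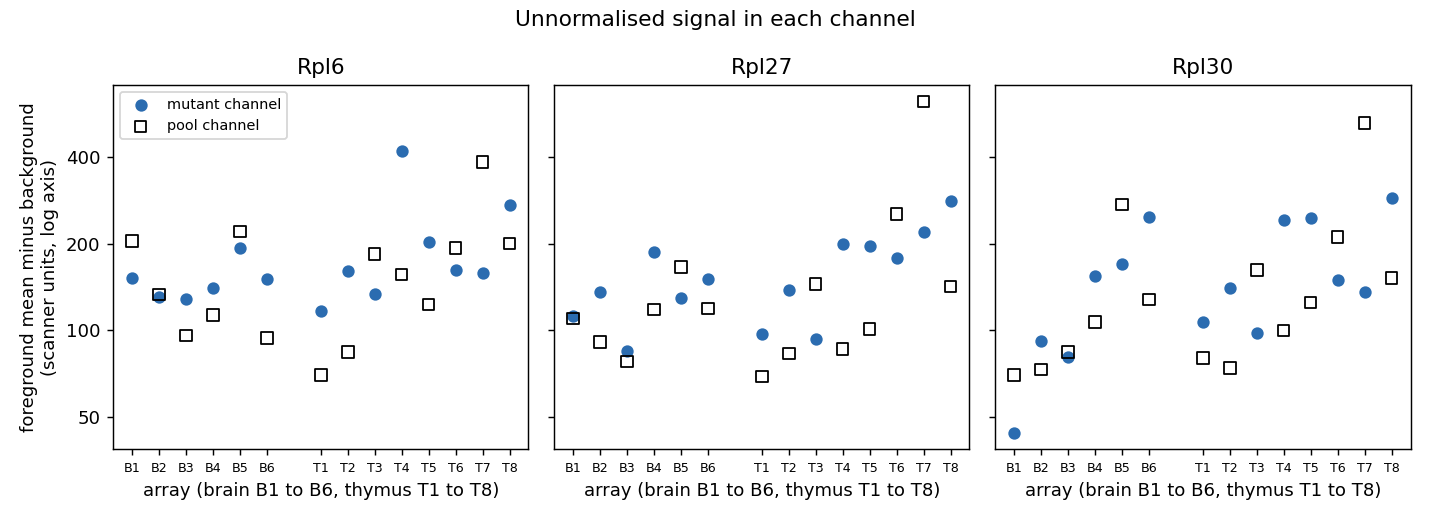
Signal above local background in scanner units on a log axis, for each brain array (B1 to B6) and thymus array (T1 to T8), in the mutant channel (filled circles) and the pool channel (open squares), before normalisation. The ranges of the 2 channels overlap for each gene, and the pool channel of thymus replicate 7 is the highest reading of Rpl27 (624) and Rpl30 (526).

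In brain none of the 3 genes passed the test for a change in the mutants. Rpl6, a large-subunit protein that in human cells also binds the p53 regulator MDM2, had the highest mean ratio. Values are log2 ratios of mutant over pool after loess normalisation within each array, with 1 value a mouse, the mean of its 2 arrays. For Rpl6 they were -0.03, 0.24 and 0.38 in mice 1, 2 and 3, with 1 mouse just under the pool and the other two above it. The mean was 0.20 ± 0.21 (SD, n = 3), with a 95% interval of 0.989-fold to 1.33-fold (limma adjusted p = 0.845).

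Rpl27, whose human counterpart is among the genes mutated in Diamond-Blackfan anaemia, had brain ratios of 0.42, 0.05 and -0.04 in mice 1, 2 and 3. Here mouse 1 was the high animal, the one in which Rpl6 was lowest. The mean was 0.14 ± 0.25 (SD, n = 3), with a 95% interval of 0.936-fold to 1.30-fold (limma adjusted p = 0.845). Without mouse 1 it was 0.0031, and in the authors' deposited table, centred on the median, it was 0.34.

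Rpl30, whose yeast counterpart binds its own transcript and limits its own production, had brain ratios of 0.17, -0.0028 and 0.12 in mice 1, 2 and 3. The mice lay closer together than for Rpl6 and Rpl27, with mouse 2 at the level of the pool. The mean was 0.10 ± 0.09 (SD, n = 3), with a 95% interval of 0.965-fold to 1.18-fold (limma adjusted p = 0.845). Across the array 0 of 17591 probes passed an adjusted p of 0.05 in brain (0%), and 783 (4.45%) had an unadjusted p below 0.05, none of the 3 genes among them.

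In thymus the mean ratios of the 3 genes lay near 0 after loess and none passed the test. Rpl6 stood at 0.17, 0.04, -0.03 and -0.13 in mice 1, 2, 3 and 4, on both sides of the pool. Its mean was 0.01 ± 0.13 (SD, n = 4), with a 95% interval of 0.895-fold to 1.14-fold (limma adjusted p = 0.983).

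Rpl27 had thymus ratios of 0.04, 0.0051, -0.0021 and 0.02 in mice 1, 2, 3 and 4, all within a few hundredths of the pool. Its mean was 0.02 ± 0.02 (SD, n = 4), with a 95% interval of 0.915-fold to 1.12-fold (limma adjusted p = 0.978). The small SD is that of mouse means, and the dye orientations behind them, given below, lay further apart.

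Rpl30 had thymus ratios of 0.11, -0.04, -0.08 and -0.20 in mice 1, 2, 3 and 4, with mouse 1 alone above the pool. Its mean was -0.05 ± 0.13 (SD, n = 4), with a 95% interval of 0.856-fold to 1.09-fold (limma adjusted p = 0.917). In this organ 0 of 5422 probes passed (0%), and 273 (5.04%) had an unadjusted p below 0.05, again without the 3 genes. The sign of the Rpl30 mean turned with the normalisation, being 0.12 with median centring of arrays in place of loess. In the authors' deposited table, centred on the median, the thymus means were 0.31 for Rpl6, 0.26 for Rpl27 and 0.25 for Rpl30, with no call in either setting.

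**Figure D2:**
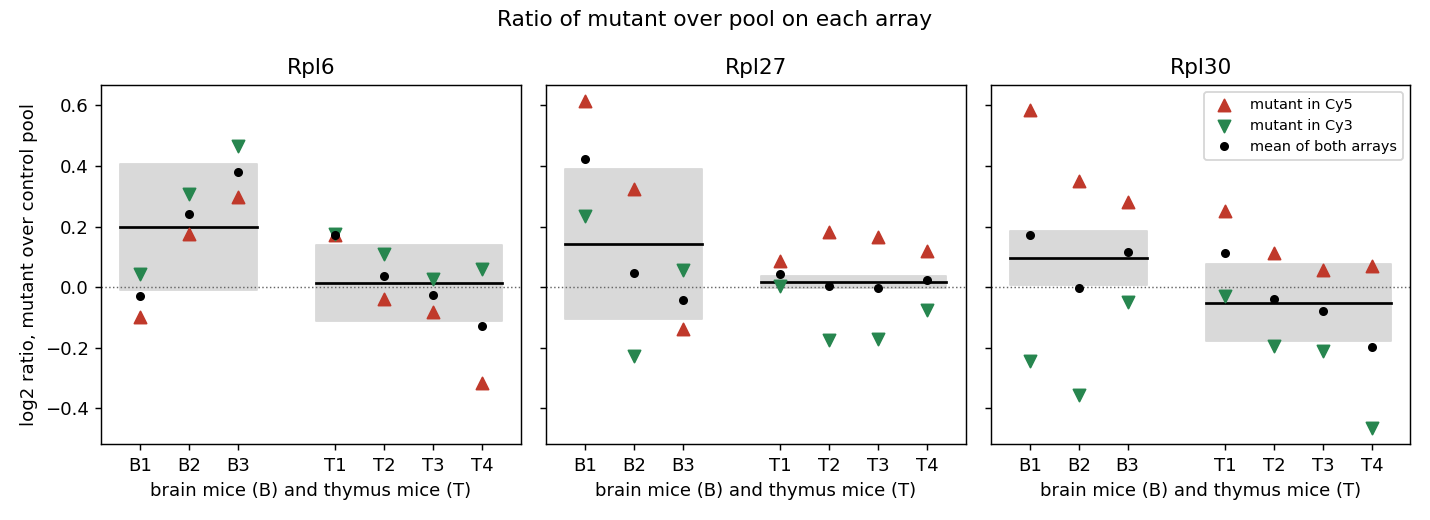
Log2 ratio of mutant over pool on each array, by mouse, for brain (B1 to B3) and thymus (T1 to T4). Red upward triangles are arrays with the mutant in Cy5, green downward triangles arrays with the mutant in Cy3, black dots the mouse means, and the line and grey band the mean of the mice and 1 SD. For Rpl30 every red triangle lies above 0 and every green one below it, and for Rpl6 each red triangle lies below the green one of the same mouse, with a difference of -0.006 in thymus mouse 1.

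The change was then compared between organs. The Rpl6 ratio in brain minus that in thymus was 0.18 on the log2 scale, with a 95% interval of -0.08 to 0.45 (limma adjusted p = 0.713). For Rpl27 the difference was 0.13, with an interval of -0.13 to 0.38 (limma adjusted p = 0.784), and for Rpl30 it was 0.15, with an interval of -0.07 to 0.36 (limma adjusted p = 0.713). None was distinguishable from 0, and 0 of 5255 probes tested in both organs passed (0%). All 3 lay above 0, as did 54.3% of the tested probes. The count at an unadjusted p below 0.05 was 365 (6.95%).

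After loess the ratios of Rpl30 lay further apart between the dye orientations than their mean lay from 0, and neither value passed a test. The dye value is a difference of 2 orientations and the genotype value is their mean, so the sizes are not directly comparable. With the mutant in Cy5, Rpl30 stood at 0.59, 0.35 and 0.28 in the brains of mice 1, 2 and 3, against -0.24, -0.36 and -0.05 with the mutant in Cy3. In thymus it stood at 0.25, 0.11, 0.06 and 0.07 in mice 1 to 4 with the mutant in Cy5, against -0.03, -0.19, -0.21 and -0.46 with the mutant in Cy3. Each mouse was higher with the mutant in Cy5 in both organs. All 7 arrays with the mutant in Cy5 were above 0 and all 7 with the mutant in Cy3 below it. The share of all probes with this pattern of signs was not counted, and the share with a difference above 0 in every mouse is given below.

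The mean difference for Rpl30, mutant in Cy5 minus mutant in Cy3, was 0.62 ± 0.26 in brain (SD, n = 3), with a 95% interval of 0.20 to 1.05. It did not pass after adjustment (limma adjusted p = 0.268, unadjusted p = 0.0104 in the same limma fit). In thymus it was 0.35 ± 0.13 (SD, n = 4), with an interval of 0.05 to 0.65 (limma adjusted p = 0.350). A difference above 0 in every mouse of both organs was found for 116 of 1747 probes (6.64%), and Rpl30 was the member among them. The ribosomal protein genes Rpl8 and Rplp2, described below, also had a difference above 0 in every mouse of both organs. In brain 2 of 17591 probes passed (0.0114%) and in thymus 0 of 5422 (0%), while 2297 (13.1%) and 746 (13.8%) had an unadjusted p below 0.05.

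Rpl27 showed the same order of the dyes in thymus. With the mutant in Cy5 its thymus ratios were 0.09, 0.18, 0.17 and 0.12 in mice 1 to 4. With the mutant in Cy3 they were 0.0025, -0.17, -0.17 and -0.07, so each mouse was higher with the mutant in Cy5. A difference above 0 in every thymus was found for 288 of 1813 probes (15.9%). In brain it stood at 0.61, 0.32 and -0.14 in mice 1, 2 and 3 with the mutant in Cy5, against 0.23, -0.23 and 0.06 with the mutant in Cy3. Here mouse 3 went the opposite way. The mean difference was 0.25 ± 0.39 in brain (SD, n = 3, limma adjusted p = 0.621) and 0.24 ± 0.13 in thymus (SD, n = 4, limma adjusted p = 0.421).

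Rpl6 leaned the other way. With the mutant in Cy5 its brain ratios were -0.10, 0.17 and 0.30 in mice 1, 2 and 3, against 0.04, 0.31 and 0.47 with the mutant in Cy3. In thymus they were 0.17, -0.04, -0.08 and -0.32 in mice 1 to 4 with the mutant in Cy5, against 0.18, 0.11, 0.03 and 0.06 with the mutant in Cy3. Each mouse was lower with the mutant in Cy5, by almost nothing in the thymus of mouse 1, while the ranges of the orientations overlapped in both organs. A difference with 1 sign in every mouse was found for 38.4% of probes in brain and 30.1% in thymus. The mean difference was -0.15 ± 0.02 in brain (SD, n = 3, limma adjusted p = 0.720) and -0.16 ± 0.16 in thymus (SD, n = 4, limma adjusted p = 0.574).

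These dye differences depended on the normalisation. With median centring in place of loess, the difference of Rpl6 was 0.46 in brain (limma adjusted p = 0.201) and 0.83 in thymus (limma adjusted p = 0.0351), with the opposite sign and a call in thymus. The Rpl30 difference was 0.99 in brain (limma adjusted p = 0.0218) and 1.22 in thymus (limma adjusted p = 0.00130) with median centring, and that of Rpl27 in thymus was 1.07 (limma adjusted p = 0.00360). Median centring called 1645 probes in brain and 572 in thymus in this comparison. Print-tip loess gave smaller differences for Rpl27, at 0.068 in brain and 0.044 in thymus, and for Rpl30, at 0.48 and 0.15. Rpl6 stood at -0.15 in brain and 0.11 in thymus. None of these genes was called in that setting, which called 1 probe in brain and 0 in thymus. The mean of the 2 arrays of a mouse balances the orientations, which is the value used for the genotype.

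The other ribosomal protein genes on the array were Rpl8, which lies by the peptidyl transferase centre, Rpl14, and Rplp2, an acidic stalk protein that helps to recruit translation factors. Together with the 3 members they made 6 of 87 cytosolic ribosomal protein genes. In brain the mean ratios of Rpl8, Rpl14 and Rplp2 were 0.06 ± 0.12, 0.08 ± 0.05 and 0.08 ± 0.04 (SD, n = 3 each). All 6 genes had a mean above 0, with a median of 0.09, where 50.5% of all tested probes were above 0 and their median was 0.0009. The brain markers leaned as far, with 8 of 10 above 0 and a median of 0.10, and both tested thymocyte markers were above 0, with a median of 0.09. None of the 6 passed. With the mutant in Cy3 only, the means of Rpl30, Rpl8 and Rplp2 were below 0, at -0.22, -0.14 and -0.12, and with the mutant in Cy5 only that of Rpl14 was, at -0.04.

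In thymus the mean ratios of Rpl8, Rpl14 and Rplp2 were 0.10 ± 0.20, -0.02 ± 0.25 and 0.08 ± 0.07 (SD, n = 4 each). Of the 6 genes 4 were above 0, with a median of 0.02, where 49% of all tested probes were above 0, and none passed. The dye difference was 0.41 in brain and 0.50 in thymus for Rpl8, and 0.41 and 0.23 for Rplp2. For Rpl14 it was -0.23 and 0.15, so Rpl14 and Rpl6 were the ribosomal protein genes below 0 in brain. The dye difference was above 0 for 4 of the 6 genes in brain, against 47.8% of all tested probes, and for 5 of 6 in thymus, against 40.8%. None of these 3 genes passed in either organ for the dye difference after loess. With median centring Rpl8 passed at 0.84 in brain and 0.87 in thymus (limma adjusted p = 0.0439 and 0.0191), and Rplp2 at 1.43 and 1.47 (limma adjusted p = 0.00476 and 0.000660).

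**Figure D3:**
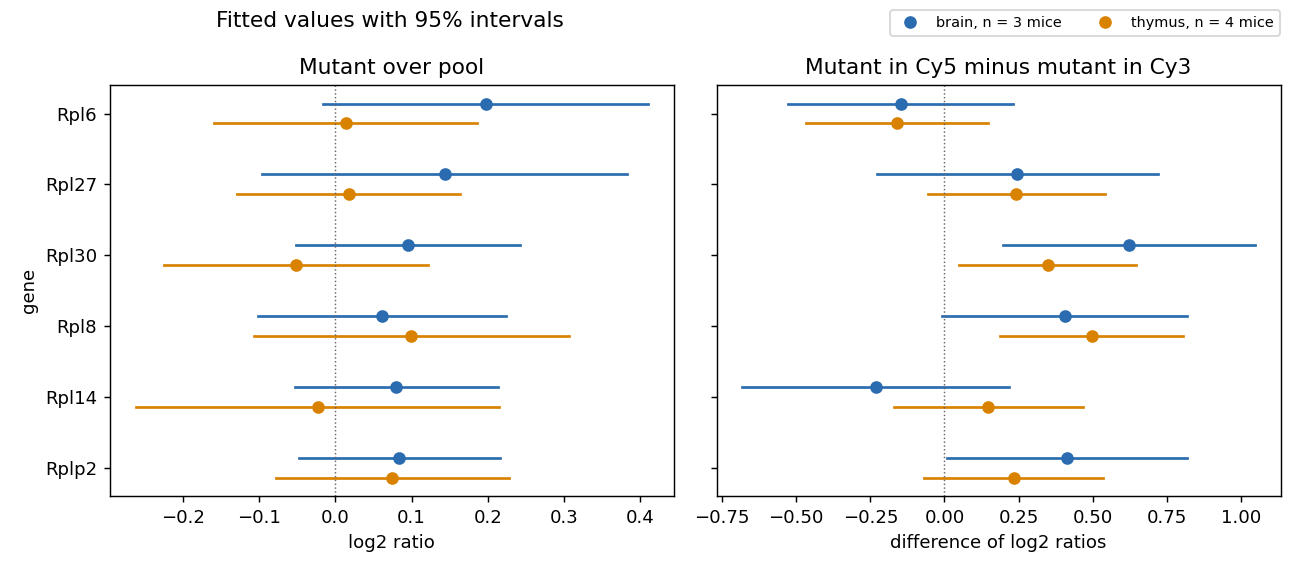
Fitted log2 ratio of mutant over pool (left) and difference between dye orientations, mutant in Cy5 minus mutant in Cy3 (right), for the 6 ribosomal protein genes on the array in brain (blue, n = 3 mice) and thymus (orange, n = 4 mice). Bars are 95% intervals of the limma fit. All intervals on the left include 0, and on the right those of Rpl30 in both organs, Rpl8 in thymus and Rplp2 in brain do not.

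Other genes of protein synthesis were sparse on the array. The mitochondrial ribosomal proteins Mrpl51 and Mrpl10 had brain ratios of 0.07 ± 0.14 and 0.06 ± 0.07 (SD, n = 3 each), and 2 of the 3 tested were above 0. The cap-binding factor Eif4e stood at 0.13 ± 0.12 in brain (SD, n = 3) and 0.21 ± 0.22 in thymus (SD, n = 4), and the poly(A)-binding protein Pabpc1 at 0.04 ± 0.07 and 0.0023 ± 0.10. Of 9 ribosome biogenesis genes 8 were above 0 in brain, led by the snoRNP protein Nop58 at 0.18 ± 0.03 and Wdr12 at 0.16 ± 0.27 (SD, n = 3 each). In thymus 4 of them were tested and 3 were above 0, with Polr1c, a subunit shared by RNA polymerases I and III, at 0.34 ± 0.62 and Taf1a at 0.05 ± 0.06 (SD, n = 2 each). No gene of these lists passed in either organ.

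The mean spot intensity of all 3 genes was lower in brain than in thymus, and none of these differences passed the test. Spot intensity is the mean log2 signal of both channels after quantile normalisation between arrays, so it mixes mutant and control RNA of an organ. The control RNA is the same pool on every array of an organ, so the mouse values are not fully independent, and the SDs and p-values do not account for that. In the pool channel alone, which holds control RNA, brain minus thymus was -0.50 for Rpl6, -0.62 for Rpl27 and -0.65 for Rpl30. The pool values are repeat readings of 1 control sample per organ, so they allow no test of control animals. Organ and array quality cannot be told apart here, since each array holds 1 organ and flags covered more of most thymus arrays. In bulk tissue, fewer cells of a type and less RNA per cell cannot be told apart. Levels are compared between organs within a spot and never between spots.

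Rpl6 stood at 7.21, 7.37 and 7.24 in the brains of mice 1, 2 and 3, against 7.90, 8.31, 7.40 and 7.43 in the thymuses of mice 1 to 4. The mice did not overlap, though thymus mouse 3 came within a few hundredths of the highest brain. The mean was 7.28 ± 0.08 in brain (SD, n = 3) and 7.76 ± 0.43 in thymus (SD, n = 4), a difference of -0.48 (95% interval -0.99 to 0.02, limma adjusted p = 0.308).

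Rpl27 stood at 6.88, 7.26 and 7.11 in the brains, against 7.79, 7.71, 7.47 and 7.73 in the thymuses of mice 1 to 4. Every brain was below every thymus. The mean was 7.08 ± 0.19 in brain (SD, n = 3) and 7.68 ± 0.14 in thymus (SD, n = 4), a difference of -0.59 (95% interval -0.93 to -0.26, limma adjusted p = 0.0815).

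Rpl30 stood at 6.51, 7.17 and 7.52 in the brains, against 7.81, 7.86, 7.46 and 7.49 in the thymuses of mice 1 to 4. The groups overlapped, since brain mouse 3 exceeded thymus mice 3 and 4. The mean was 7.06 ± 0.51 in brain (SD, n = 3) and 7.66 ± 0.21 in thymus (SD, n = 4), a difference of -0.59 (95% interval -1.13 to -0.06, limma adjusted p = 0.248). It was -0.26 without mouse 1, whose brain was the lowest, and -0.88 without mouse 3.

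Of 8384 probes tested, 218 passed (2.6%), 200 of them brighter in brain (2.39%) and 18 dimmer in brain (0.215%), and none of the 3 genes was among them. Every brain lay below every thymus for 126 of 1853 probes with a value in all mice (6.8%), and Rpl6 and Rpl27 were 2 of these. The 95% intervals correspond to a brain signal of 0.504-fold to 1.02-fold that of thymus for Rpl6, 0.525-fold to 0.837-fold for Rpl27 and 0.458-fold to 0.962-fold for Rpl30. Of the other ribosomal genes, Rplp2 differed by -0.44, Rpl14 by 0.0047 and Rpl8 by -0.006, and none passed. The median over the 6 genes was -0.46, against 0.08 over all tested probes, of which 60.2% were above 0, as was 1 of the 6 genes.

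The treatment of flagged spots moved these differences. With flagged spots kept, the difference was -0.75 for Rpl6 (limma adjusted p = 0.101), -0.84 for Rpl27 (limma adjusted p = 0.0377) and -0.88 for Rpl30 (limma adjusted p = 0.0963). Every brain then lay below every thymus for all 3 genes, as it did for 1609 of 18161 probes (8.86%). Thymus replicate 6, the array with the fewest flagged spots in its organ, was the lowest thymus reading of Rpl6, Rpl27 and Rpl30 under this setting. Without it, and with flagged spots kept, the difference was -0.86 for Rpl6 (limma adjusted p = 0.0303), -0.91 for Rpl27 (limma adjusted p = 0.0152) and -0.998 for Rpl30 (limma adjusted p = 0.0498). Without it and with flagged spots left out, Rpl27 passed at -0.62 (limma adjusted p = 0.0460).

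**Figure D4:**
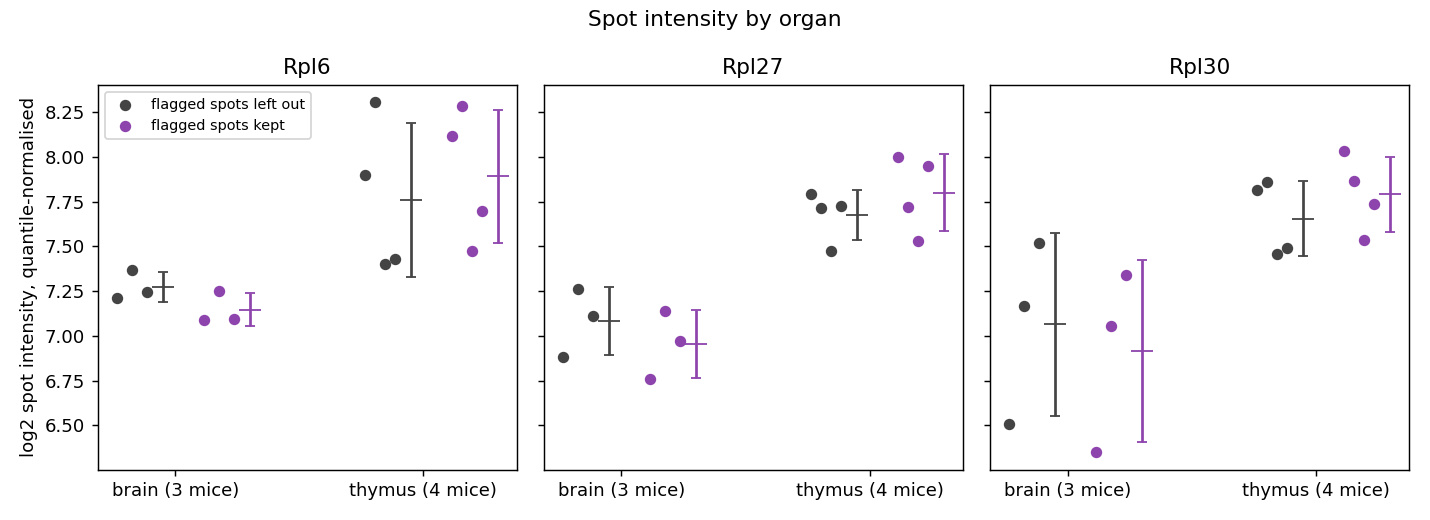
Log2 spot intensity by mouse in brain (3 mice) and thymus (4 mice), after quantile normalisation, with flagged spots left out (grey) and kept (purple). Points are mice, in order from left to right, and the bars beside them give the mean and 1 SD. Brain lies below thymus for every gene, without overlap except for Rpl30 with flagged spots left out.

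Quantile normalisation sets each value by the rank of the spot on its array. The ranks below were taken with flagged spots kept. They restate the intensities of that setting, not those with flagged spots left out, and are given for scale. In brain the intensity percentile of Rpl6 among all probes ran from 84.1 to 92.6 with a median of 91.4, against 87.3 to 98.9 with a median of 97.8 in thymus. For Rpl27 it ran from 58.8 to 94.99 in brain, with a median of 83.0, against 92.3 to 98.0 in thymus, with a median of 97.3. For Rpl30 it ran from 16.6 to 94.2 in brain, with a median of 85.7, against 87.4 to 98.2 in thymus, with a median of 97.6. A percentile places a spot among all probes of its array, and as few as 7.96% of probes were detected on a thymus array. It is not a measure of level between spots. Rpl30 on brain replicate 1 had the lowest percentile of the 3 spots.

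Across arrays, Rpl27 and Rpl30 varied together while Rpl6 did not follow them in the ratio. The Pearson correlation of the log2 ratio over the 14 arrays was 0.70 for Rpl27 with Rpl30, -0.41 for Rpl6 with Rpl27 and -0.16 for Rpl6 with Rpl30. Rpl30 correlated at 0.84 with Rplp2 and at 0.76 with Rpl8. Among 10296 pairs of named genes measured on every array the median was 0.02, the 5th percentile -0.50 and the 95th percentile 0.59. These arrays share pools, mice and dye orientations, so the values describe the arrays and are not tests. The spots of Rpl27 and Rpl30 also share print block 17, and the part of the block in their correlation was not tested.

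In spot intensity the correlation was 0.81 for Rpl27 with Rpl30, 0.69 for Rpl6 with Rpl30 and 0.60 for Rpl6 with Rpl27, with organ, depth and array in common. Over all pairs the median was 0.10 and the 95th percentile 0.71. The 3 genes closest to each member among 488 named genes with values on at least 12 arrays were taken by the highest correlation. In the log2 ratio these were Ttll9 (0.75), Gsto1 (0.73) and Gorasp2 (0.68) for Rpl6, Ntsr2 (0.79), Adam15 (0.78) and Uhmk1 (0.73) for Rpl27, and Adam15 (0.90), Laptm4a (0.88) and Fcgr2b (0.85) for Rpl30. In spot intensity they were Arhgap45 (0.88), Rmnd5a (0.86) and Fcgr2b (0.84) for Rpl6, Ifngr1 (0.91), Pltp (0.84) and Sec61b (0.83) for Rpl27, and Rpl27 (0.81), Son (0.81) and Rmnd5a (0.79) for Rpl30.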

How the data were processed

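Expression was measured on 14 spotted 2-colour cDNA arrays. Per the file headers, the deposited scanner files give foreground and local background intensity of every spot for the red (Cy5) and green (Cy3) channel, a percent of saturated pixels and a flag score (spots at -50 are treated here as flagged; the headers give no meaning), with no normalisation by the authors. The authors' deposited table of log2 ratios equals background-subtracted medians plus a constant for 99.7% to 99.9% of rows, and served as an alternative. The constant differed between arrays, from -0.76 on thymus replicate 8 to 1.11 on thymus replicate 7. No source used here names the scanner or its software.

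Background was corrected on foreground means by normexp (offset 50), and loess (span 0.3) without flagged spots normalised each array, in limma 3.58.1 under R 4.3.3. Ratios were turned to mutant over pool, and both arrays of a mouse averaged. A probe entered a test when detected on a fraction of 0.5 or more of an organ's arrays, with values from at least 2 mice. Mouse values were tested against 0, or between organs, with limma (lmFit, eBayes), and p-values were adjusted by Benjamini-Hochberg over every probe of a test, at 0.05. The pool counts as 1 control sample. The number of arrays limits the precision. Accessions named 961 probes and synonyms 492, through RefSeq tables. No 2 arrays held identical values. As a check, the procedure was also run on these scanner values after known factors were put into randomly chosen probes. The outcome of that check is not reported here. Organs of mice 1 to 3 are paired, being from the same animals per the labels, and the deviations of the pairs correlated at 0.00682, -0.0021 and -0.0077 across probes.

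The members and gene lists were chosen with earlier results of these data known. All 6 ribosomal protein genes may be named; of the other lists, the 2 genes of smallest p per organ; and the 3 genes most correlated with each member. Alternatives covered background, normalisation, filters, flags, dye, left-out mice and arrays, and the mouse as a block, and 3 were added after seeing the data. Where a mouse identifier in a file name had swapped digits, the label was followed.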

Additional observations from a re-analysis of the deposited data

Results flagged for a closer look

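The values of the 3 genes were searched for samples far from the others of their group, in 27 groups of 4 to 10 values, with Dixon's test at 95%. Chance marks about 5% of such groups, and 5 were marked. Intensity percentiles were taken with flagged spots kept. The Rpl30 intensity percentile was 16.6 on brain replicate 1, where the other brain arrays ran from 68.2 to 94.2. This is 1 of the 2 arrays on which Rpl30 was not detected. On thymus replicate 6, the array with the fewest flagged spots of its organ, the percentile was 87.3 for Rpl6, against 94.4 to 98.9 on the other thymus arrays. On the same array it was 92.3 for Rpl27, against 96.5 to 98.0, and 87.4 for Rpl30, against 96.0 to 98.2. The dye difference of Rpl30, mutant in Cy5 minus mutant in Cy3, was 0.54 in the thymus of mouse 4, against 0.27 to 0.31 in the other thymuses. The Cy3 array of that mouse is the thymus array on which Rpl30 was not detected. The part of detection or of flagged spots in these values was not tested.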

How the results depend on the processing

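No call for a change of Rpl6, Rpl27 or Rpl30 in brain or thymus, or for its difference between organs, appeared under any alternative run; signs near 0 did turn. The counts of called probes were 1 with the foreground median and 1 with the mutant in Cy5 only for the change in brain, and 1 with the foreground median for the difference between organs. Rpl30 in brain was -0.22 with the mutant in Cy3 only, and Rpl27 in brain 0.0031 to 0.24 without 1 mouse. In thymus, Rpl6 was -0.032 with the foreground median, -0.067 with the mutant in Cy5 only, and -0.040 to 0.061 without 1 mouse or array (-0.00038 without replicate 6); Rpl27 was -0.013 with the foreground median, -0.0072 with scaling, -0.10 with the mutant in Cy3 only, and -0.0069 to 0.059 without 1 mouse or array; Rpl30 was 0.12 with median centring, 0.25 in the authors' table and 0.12 with the mutant in Cy5 only. The difference between organs was -0.015 (median centring) and -0.13 (authors' table) for Rpl6, -0.029 (authors' table) for Rpl30, and -0.0052 to 0.21 for Rpl27 without 1 mouse or array. The cause of these turns was not tested.

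For the dye difference, brain calls numbered 0 with plain subtraction, with scaling and with detection on every array, 1 with print-tip loess and with flagged spots kept, 159 with the foreground median, 1645 with median centring, and 1 to 5 without 1 mouse. Thymus calls numbered 572 with median centring and 0 to 2 without 1 mouse. Median centring gave 0.46 for Rpl6 and 0.99 for Rpl30 in brain, and 0.83, 1.07 and 1.22 for Rpl6, Rpl27 and Rpl30 in thymus, called except for Rpl6 in brain, and print-tip loess 0.11 for Rpl6 in thymus.

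For spot intensity, calls numbered 329 with flagged spots kept, 455 with them kept and without thymus replicate 6, and 46 to 356 without 1 mouse or array (118, 52, 46 and 125 without mice 1 to 4, 356 without thymus replicate 6). Rpl27 was called at -0.65 with the foreground median, -0.84 with flagged spots kept, -0.84 with them kept in the mutant channel only, and -0.62 without thymus replicate 6, in a range of -0.69 to -0.45 without 1 mouse or array, where Rpl30 ran from -0.88 to -0.26. With flagged spots kept and without thymus replicate 6, Rpl6 (-0.86), Rpl27 (-0.91) and Rpl30 (-0.998) were called. The other alternatives kept the sign for all 3 genes and called none of them.

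With the mouse as a replicate block, over the 3 paired animals, 41 probes were called in spot intensity. The intensity differences were -0.59 (Rpl6), -0.58 (Rpl27) and -0.65 (Rpl30), and those of the change 0.14, 0.13 and 0.10 for the same genes. Pairing changed no call of theirs.

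Of the other ribosomal genes, Rpl8 in brain was -0.14 with the mutant in Cy3 only and -0.0037 to 0.12 without 1 mouse, Rplp2 -0.12 with the mutant in Cy3 only and Rpl14 -0.036 with the mutant in Cy5 only. In thymus Rpl14 was 0.010 with plain subtraction, 0.017 without background correction, 0.051 with the mutant in Cy5 only and -0.14 to 0.069 without 1 mouse or array, and Rpl8 and Rplp2 were -0.15 and -0.042 with the mutant in Cy3 only. The difference between organs for Rplp2 was -0.026 (plain subtraction), -0.010 (print-tip loess), -0.024 (uncorrected background), -0.030 (foreground median), -0.14 (median centring), -0.22 (authors' table), -0.080 (mutant in Cy3), -0.015 (replicate block) and -0.019 to 0.039 without 1 mouse or array. For Rpl8 it was 0.0071 (mutant in Cy3) and -0.12 to 0.011, and for Rpl14 -0.087 (mutant in Cy5). The dye difference was -0.19 for Rpl8 in brain and -0.0090 for Rpl14 in thymus with print-tip loess, and 0.14 for Rpl14 in brain with median centring. In spot intensity Rpl14 was -0.0092 (uncorrected background), -0.012 (foreground median), -0.22 (flagged spots kept), -0.17 (kept, mutant channel), -0.21 (kept, median centring), -0.24 (kept, without thymus replicate 6), -0.047 (replicate block) and -0.076 to 0.15 without 1 mouse or array. Rpl8 was 0.16 (pool channel), 0.16 (median centring), 0.027 (uncorrected background), 0.011 (foreground median) and -0.14 to 0.21 without 1 mouse or array.

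With 3 and 4 mice and a mixed control sample, the 95% intervals still include changes of up to 1.33-fold for Rpl6 and 1.30-fold for Rpl27 in brain, so such changes cannot be told from none here. Each gene rests on 1 spot, and dim spots are pulled toward 0 by the offset.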
